A study of Gallus gallus with 20 samples.

Results

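Pigment synthesis was followed through 9 genes, TYR, TYRP1, DCT, PMEL, MLANA, GPR143, TRPM1, SLC45A2 and OCA2, in chicken embryo skin of feather and of scale regions. The genes were chosen by name. All 9 were found among the 13009 genes with 1 symbol on the array, through 13 of the 38439 probe sets tested. Of these genes, 7 have 1 probe set, while OCA2 and TRPM1 have 3 each, and the probe set with the highest mean over all 20 arrays stood for its gene.

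The embryos were White Leghorn, with no treatment and no engineered allele in any group. Dorsal skin, which forms feathers, was taken at embryonic day 7 before differentiation (E7fe and E7fm, 2 arrays each) and at day 9 after it (E9fe and E9fm, 3 arrays each). Metatarsal skin, which forms scales, was taken at day 9 before differentiation (E9se and E9sm, 2 arrays each) and at day 11 after it (E11se and E11sm, 3 arrays each). The last letter stands for epithelium (e) or mesenchyme (m), which were parted with EDTA, and the skins of a sample were pooled. Values are the deposited levels on a log2 scale, on which 1 unit is a factor of 2, and a level cannot be set against that of another gene because each probe set binds with its own strength. In the comparisons of skins of like competence (E9 scale with E7 feather, E11 scale with E9 feather) the scale skin is the older. Region and embryo age cannot be told apart there. E9se with E9fe and E9sm with E9fm compare 1 age, but set scale skin before differentiation against feather skin after it. Region and stage of differentiation cannot be told apart in these 1-age comparisons.

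Melanin is made in melanosomes, organelles of pigment cells that derive in skin from the neural crest. Crest cells called melanoblasts migrate through the embryonic skin, enter the epidermis and, in birds, the feather follicle, where they pass melanosomes to keratinocytes. Tyrosinase and its relatives make the pigment on protein fibrils formed by PMEL, while transporters and receptors of the melanosome membrane set its ions and maturation. White Leghorns typically carry the Dominant white form of PMEL and lay down little pigment, but the labels give no genotype. In RNA of whole tissue, fewer pigment cells and less RNA per cell cannot be told apart.

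Before any result, 2 arrays have to be set aside as doubtful, since they went against their labels. SP8, a gene of limb ectoderm, measured 10.16 in the sample named E9fe replicate 1, where the other E9fe arrays gave 3.98 and 4.01 and scale epithelium at most 10.15. TBX4, a hindlimb gene, measured 10.39 in the sample named E9fm replicate 1, where the other E9fm arrays gave 5.29 and 5.35 and scale mesenchyme 10.11 to 11.16. Over all probe sets, E9fe replicate 1 correlated best with an E11se array (r = 0.9877, against at most 0.9743 within its group) and E9fm replicate 1 with an E11sm array (r = 0.9864, against at most 0.9658). Such a match alone does not mark an array, since kept arrays had it too. E9fm replicate 2 correlated best with an E11sm array (0.9851, against 0.9778), as did E9sm replicate 2 (0.9919, against 0.982). E11se replicate 2 correlated best with an E9se array (0.9853, against 0.9773). Every comparison is therefore given on all 20 arrays, which is the main fit, and on the 18 arrays without these 2. Differences were tested with limma and p-values adjusted by Benjamini-Hochberg over the 38439 probe sets, and a gene passed at an adjusted p below 0.05. The error given with a difference is the standard error of that fit.

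**Figure D1:**
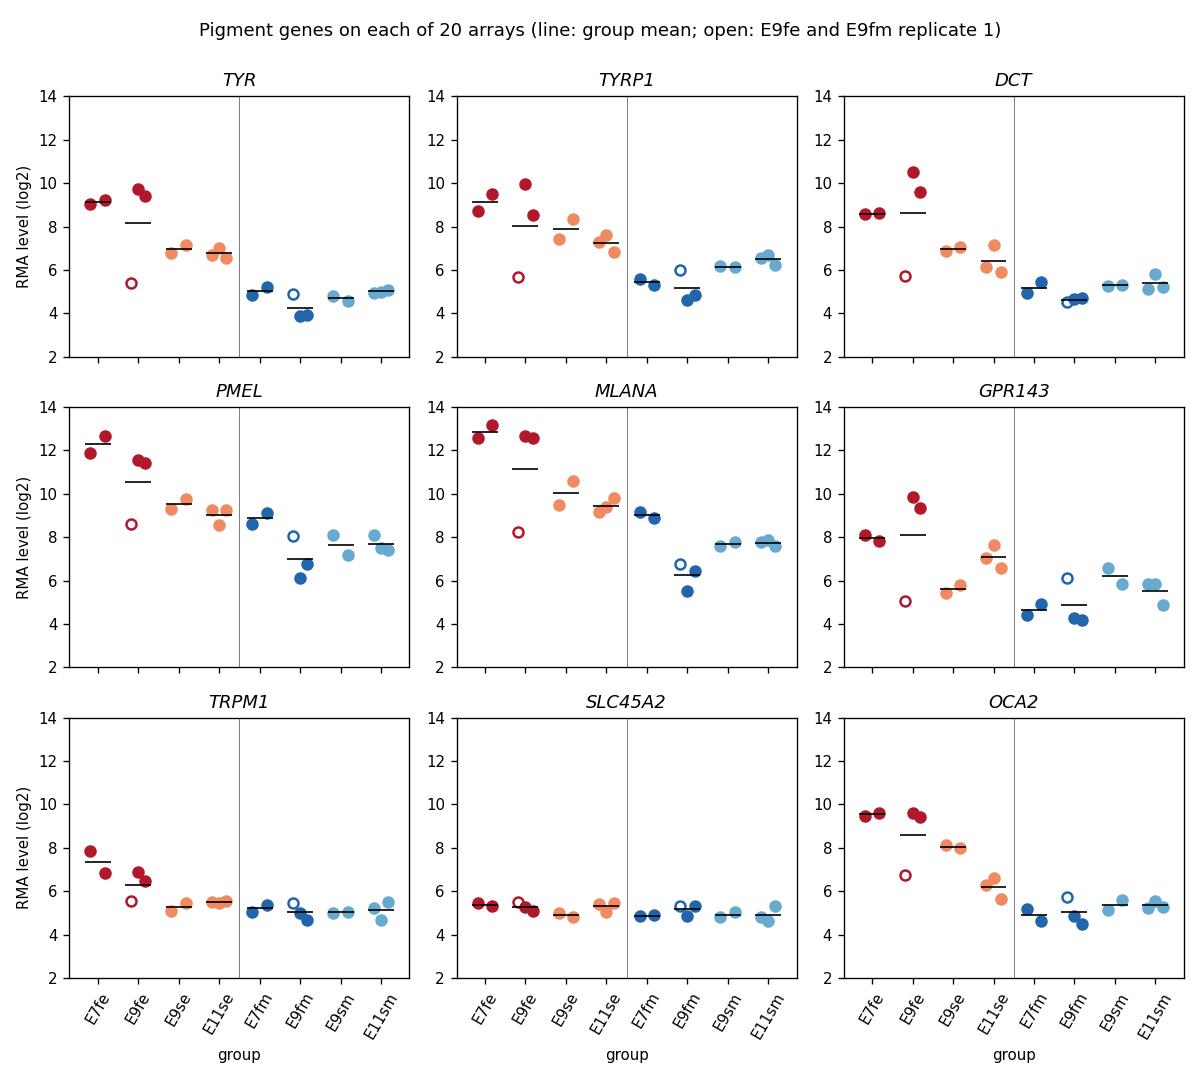
Level of each of the 9 genes (RMA, log2) on every array, by group, with feather epithelium in red, scale epithelium in orange, feather mesenchyme in dark blue and scale mesenchyme in light blue. Lines are group means over all arrays, and open circles mark E9fe and E9fm replicate 1. The E7fe arrays and E9fe replicates 2 and 3 stand highest for 8 genes, while SLC45A2 stays between 4.63 and 5.51 throughout.

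TYR, tyrosinase, catalyses the first and rate-limiting step of melanin synthesis. In feather epithelium it measured 9.06 and 9.24 at E7 and 5.41, 9.72 and 9.41 at E9, and in scale epithelium 6.80 and 7.13 at E9 and 6.70, 7.03 and 6.56 at E11. Mesenchyme gave 4.85 and 5.21 in E7fm, 4.90, 3.87 and 3.93 in E9fm, 4.80 and 4.58 in E9sm, and 4.94 to 5.09 in E11sm. Feather epithelium was thus the highest, scale epithelium lay between it and mesenchyme, and these 3 levels did not overlap once E9fe replicate 1, whose value was nearly that of mesenchyme, was set aside.

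TYRP1, a tyrosinase-related enzyme that stabilises tyrosinase and acts later in the pathway, showed the same order of the 3 levels. Its levels were 8.74 and 9.51 in E7fe, 5.66, 9.95 and 8.53 in E9fe, 7.45 and 8.37 in E9se, and 7.28, 7.60 and 6.85 in E11se. In mesenchyme they were 5.60 and 5.33 in E7fm, 5.98, 4.62 and 4.85 in E9fm, 6.17 and 6.14 in E9sm, and 6.55, 6.67 and 6.24 in E11sm. The gap between E11 scale epithelium and mesenchyme was narrow, with 6.85 the lowest epithelial and 6.67 the highest mesenchymal array.

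DCT, dopachrome tautomerase, is an early marker of melanoblasts. It reached 8.56 and 8.64 in E7fe and 10.52 and 9.61 on E9fe replicates 2 and 3, but 5.72 on E9fe replicate 1. In scale epithelium it measured 6.87 and 7.04 at E9 and 6.13, 7.17 and 5.89 at E11. All mesenchymal arrays lay between 4.53 and 5.80, so that DCT was higher in epithelium than in mesenchyme on every array but E9fe replicate 1.

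PMEL forms the fibrils on which melanin settles. It measured 11.87 and 12.68 in E7fe, 8.62, 11.54 and 11.43 in E9fe, 9.28 and 9.75 in E9se, and 9.26, 8.55 and 9.23 in E11se. Its mesenchymal levels were 8.60 and 9.12 in E7fm, 8.03, 6.14 and 6.78 in E9fm, 8.10 and 7.19 in E9sm, and 8.11, 7.49 and 7.40 in E11sm. Unlike the enzymes, PMEL in E7 feather mesenchyme overlapped its level in scale epithelium.

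MLANA, a melanosomal membrane protein needed for PMEL maturation, was again highest in feather epithelium once E9fe replicate 1 was set aside. Epithelium gave 12.57 and 13.16 in E7fe, 8.24, 12.64 and 12.55 in E9fe, 9.50 and 10.60 in E9se, and 9.18, 9.37 and 9.82 in E11se. Mesenchyme gave 9.16 and 8.87 in E7fm, 6.77, 5.50 and 6.45 in E9fm, 7.59 and 7.77 in E9sm, and 7.76, 7.88 and 7.58 in E11sm. The E9fm arrays were the lowest of all 8 groups, E9fm replicate 1 included.

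OCA2 and SLC45A2 are transport proteins of melanosomes and their precursors that set the pH tyrosinase needs. OCA2 measured 9.48 and 9.61 in E7fe, 6.72, 9.62 and 9.40 in E9fe, 8.14 and 7.97 in E9se, and 6.26, 6.61 and 5.63 in E11se, against 4.47 to 5.72 over all mesenchymal arrays. Both E9se arrays lay above all 3 E11se arrays. SLC45A2 stayed between 4.63 and 5.51 over all 20 arrays, below the array medians of 5.618 to 5.686. It passed in no comparison on 20 or on 18 arrays, and its groups overlapped at each of the 7 steps of their order. In E11sm minus E11se it did pass with array weights and without E11sm replicate 3.

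GPR143, a receptor of the melanosome membrane that sets melanosome number and size, had a pattern of its own in scale skin. It measured 8.09 and 7.84 in E7fe, 5.05, 9.87 and 9.36 in E9fe, 5.43 and 5.78 in E9se, and 7.05, 7.63 and 6.59 in E11se. In mesenchyme it measured 4.40 and 4.90 in E7fm, 6.14, 4.26 and 4.20 in E9fm, 6.59 and 5.84 in E9sm, and 5.85, 5.85 and 4.88 in E11sm. In E9 scale skin, mesenchyme was therefore no lower than epithelium, whereas the other 7 genes that varied had a lower mean in mesenchyme there.

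TRPM1, a cation channel of melanocytes and retinal bipolar cells, was clearly above its mesenchymal levels in feather epithelium alone. It measured 7.84 and 6.84 in E7fe and 5.56, 6.89 and 6.46 in E9fe. Scale epithelium gave 5.09 and 5.45 at E9 and 5.48, 5.47 and 5.56 at E11, within or near the mesenchymal range of 4.67 to 5.48.

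Before differentiation the difference between scale and feather epithelium of like competence (E9se minus E7fe) was below 0 for all 9 genes. TRPM1 was lower in scale epithelium (-2.07 ± 0.39, adjusted p = 0.018), and it was the 1 member that passed on all 20 arrays, where 0.463% of all probe sets passed as lower. With the 2 doubted arrays left out, 7 members passed as lower, where 1.09% of all probe sets did. TYR was among them (-2.19 ± 0.20, adjusted p = 2.9e-05), as were MLANA (-2.82 ± 0.35, adjusted p = 0.00042) and PMEL (-2.76 ± 0.38, adjusted p = 0.00086). GPR143 (-2.36), OCA2 (-1.49) and DCT (-1.64) passed too, and TYRP1 (-1.22 ± 0.41, adjusted p = 0.25) and SLC45A2 did not. The doubted arrays are in neither group, so the differences are the same in both fits, and what changes is the shared estimate of the spread. A fit on the 4 arrays of these groups alone also gave 7 members. The call for TRPM1 on 20 arrays was lost without E7fe replicate 1 (-1.58, adjusted p = 0.285), E9se replicate 1 (-1.89, adjusted p = 0.219) or E9se replicate 2 (-2.25, adjusted p = 0.0895). The median difference of the 9 genes was -2.07, that of all probe sets -0.02.

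After differentiation (E11se minus E9fe) the calls in epithelium depended on whether E9fe replicate 1 was counted. On all 20 arrays no member passed in limma, where 0.312% of all probe sets did in either direction. An unadjusted p below 0.05 was found for 5 members and for 2213 of the 38439 probe sets. Without the doubted arrays 8 members passed as lower in scale epithelium, all but SLC45A2, where 1.58% of probe sets did. DCT differed most (-3.67 ± 0.34, adjusted p = 1.9e-05), followed by OCA2 (-3.35 ± 0.26, adjusted p = 3.8e-06), MLANA (-3.14 ± 0.32, adjusted p = 5.8e-05) and TYR (-2.80 ± 0.18, adjusted p = 6.1e-07). GPR143 (-2.52), PMEL (-2.48), TYRP1 and TRPM1 (-1.17) followed, TYRP1 with an adjusted p of 0.0081. On 20 arrays the same 8 differences ran from -2.42 for OCA2 to -0.80 for TYRP1 and TRPM1.

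At the same age, E9, scale epithelium was again the lower on 18 arrays (E9se minus E9fe). Here the scale skin is before differentiation and the feather skin after it. No member passed on 20 arrays, where 0.0754% of probe sets did in either direction. Unadjusted p was below 0.05 for 2 members and for 2841 of the 38439 probe sets. On 18 arrays 7 passed as lower, where 1.5% of probe sets did: GPR143 (-4.01 ± 0.38, adjusted p = 2.4e-05), DCT (-3.11 ± 0.37, adjusted p = 0.00019), TYR (-2.60 ± 0.20, adjusted p = 2.8e-06), and MLANA, PMEL, OCA2 and TRPM1 (-2.55 to -1.41). TYRP1 was at -1.33 ± 0.41 (adjusted p = 0.13). These differences share the E9fe or the E9se arrays with those of like competence, so they are not separate evidence. Markers of other tissues moved in the same comparisons on 18 arrays. Of 6 erythroid markers on the array, HBAD and HBA1 were lower in scale epithelium, in E11se minus E9fe (-3.20 and -2.98, adjusted p = 0.00296 and 0.000828) and in E9se minus E9fe (-3.06 and -2.75). The erythroid list means were 7.11 and 8.26 in E7fe, 6.46 to 8.2 in E9fe, 6.14 and 6.79 in E9se, and 5.93 to 6.8 in E11se. Of 13 dermal fibroblast markers, 4 passed as higher in scale epithelium in each comparison of like competence and 5 at E9, among them COL1A1 (+1.31 in E11se minus E9fe) and COL3A1 (+1.12). Of all 38439 probe sets, 342 passed as higher in E9se minus E7fe, 411 in E11se minus E9fe and 650 in E9se minus E9fe. Other fibroblast markers ran the other way after differentiation. LUM measured 5.78 to 5.87 in E11se against 6.60 and 6.75 on E9fe replicates 2 and 3, and VIM 10.33 to 10.61 against 11.09 and 10.99. The part of the erythroid and fibroblast markers in the members' differences was not tested.

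**Figure D2:**
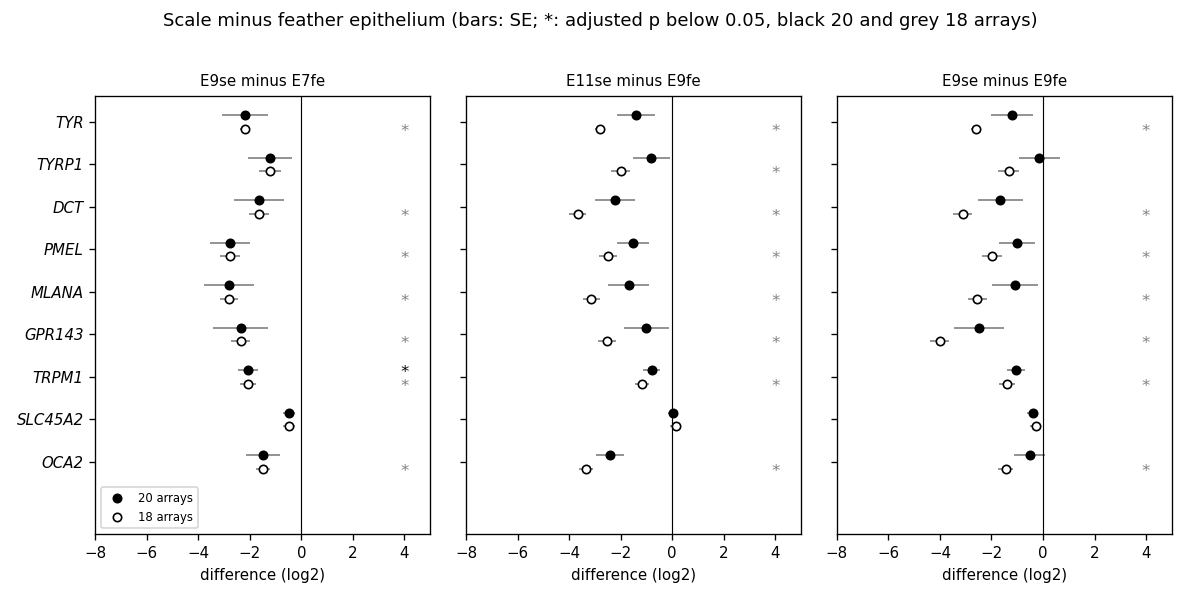
Scale minus feather epithelium (log2) for each gene, from limma, with standard errors as bars, on all 20 arrays (filled) and without E9fe and E9fm replicate 1 (open). Stars mark an adjusted p below 0.05, black for 20 and grey for 18 arrays: 1, 0 and 0 members on 20 arrays, and 7, 8 and 7 on 18.

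Leaving out E9fe replicate 1 alone gave 6, 7 and 7 members in these 3 comparisons. On this array 8 of the 9 genes, all but SLC45A2, lay below both other E9fe arrays, and below their mean by 1.12 for TRPM1 to 4.57 for GPR143. For TYR, TYRP1, DCT, MLANA and GPR143 it lay below every scale epithelium array as well, and for PMEL, TRPM1 and OCA2 within their range. The mean of 13 dermal fibroblast markers was 10.22 on it, against 7.91 and 8.02 on E9fe replicates 2 and 3 and 8.25 to 9.23 on the other epithelial arrays. LUM, one of them, stood at 10.59 against 6.60 and 6.75. The part of mesenchymal RNA in the members' levels on this array was not tested.

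Between scale and feather mesenchyme fewer members passed. Before differentiation (E9sm minus E7fm) no member passed on 20 arrays, nor did any have an unadjusted p below 0.05, where 0.788% of probe sets passed in either direction. On 18 arrays GPR143 passed as higher in scale mesenchyme (+1.57 ± 0.38, adjusted p = 0.047), where 0.996% of probe sets were called higher. MLANA (-1.33 ± 0.35, adjusted p = 0.083) and PMEL (-1.22 ± 0.38, adjusted p = 0.18) were lower there without passing.

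After differentiation the difference (E11sm minus E9fm) was above 0 for 8 of the 9 members on both sets of arrays. Members passed only without the doubted arrays. No member passed on 20 arrays, and none had an unadjusted p below 0.05, where 0.0052% of probe sets passed in either direction. On 18 arrays 3 passed as higher, MLANA (+1.77 ± 0.32, adjusted p = 0.0067), TYRP1 (+1.75 ± 0.37, adjusted p = 0.02) and TYR (+1.11 ± 0.18, adjusted p = 0.0027), where 1.08% of probe sets did. At E9 (E9sm minus E9fm) the counts were 0 on 20 arrays, where 0% of probe sets passed, and 3 as higher on 18, GPR143 (+1.99 ± 0.38, adjusted p = 0.0079), MLANA (+1.71 ± 0.35, adjusted p = 0.014) and TYR (+0.79 ± 0.20, adjusted p = 0.047), where 1.17% of probe sets did. None had an unadjusted p below 0.05 on 20 arrays. The mean of 10 keratinocyte markers moved the same way, at 6.47 to 7.44 in scale mesenchyme and 5.71 and 6.05 on E9fm replicates 2 and 3, and its part was not tested. E9fm replicate 1 had the highest such mean of any mesenchymal array, 8.27, and on it TYR, PMEL, GPR143 and TRPM1 lay above both other E9fm arrays and within the range of scale mesenchyme. TYRP1 (5.98) and MLANA (6.77) lay above both other E9fm arrays but below that range, and OCA2 (5.72) and SLC45A2 (5.33) above it. DCT (4.53) lay below both other E9fm arrays and below every scale mesenchyme array.

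From E7 to E9, feather epithelium gave few calls among the pigment genes (E9fe minus E7fe). No member passed on 20 arrays, where 0.637% of probe sets did in either direction. Unadjusted p was below 0.05 for 2 members and for 2525 of the 38439 probe sets. On 18 arrays GPR143 rose (+1.65 ± 0.38, adjusted p = 0.033), where 1.01% of probe sets did. DCT was at +1.47 ± 0.37 (adjusted p = 0.059), TYR at +0.41 ± 0.20 (adjusted p = 0.57) and PMEL at -0.79 ± 0.38 (adjusted p = 0.57).

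In feather mesenchyme 3 of them passed as lower over the same days once the doubted arrays were left out (E9fm minus E7fm). On 20 arrays no member passed, where 0.52% of probe sets did in either direction. Unadjusted p was below 0.05 for 2 members and for 3465 of the 38439 probe sets. On 18 arrays MLANA fell (-3.04 ± 0.35, adjusted p = 0.00024), as did PMEL (-2.40 ± 0.38, adjusted p = 0.0027) and TYR (-1.13 ± 0.20, adjusted p = 0.0061), where 0.924% of probe sets fell. The other 6 lay between -0.73 for TYRP1 and +0.20 for SLC45A2. Keratinocyte markers had list means of 5.63 and 5.66 in E7fm and 5.71 and 6.05 on the remaining E9fm arrays, and their part was not tested. Erythroid markers were higher in E7fm, at 11.19 to 11.94 against 10.58 and 10.97 on those E9fm arrays and 8.56 on E9fm replicate 1, and their part was not tested.

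In scale epithelium 2 genes moved in opposite directions from E9 to E11. On 20 arrays no member passed, where 0.676% of probe sets did in either direction. Unadjusted p was below 0.05 for 1 member and for 3934 of the 38439 probe sets. On 18 arrays, where 1.69% of probe sets passed in either direction, OCA2 fell (-1.89 ± 0.26, adjusted p = 0.0016) and GPR143 rose (+1.48 ± 0.34, adjusted p = 0.044). For the other 7 the differences ran from -0.67 to +0.42. Scale mesenchyme (E11sm minus E9sm) gave no call on either set of arrays, for members or for any probe set (0% and 0%), and no member had an unadjusted p below 0.05. Its differences lay between -0.69 ± 0.34 for GPR143 and +0.33 ± 0.37 for TYRP1.

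On 20 arrays most calls came between the compartments. In E7 feather skin 7 members were lower in mesenchyme, where 6.07% of probe sets were. They included OCA2 (-4.65 ± 0.67, adjusted p = 0.00012), TYR (-4.12 ± 0.90, adjusted p = 0.0045), MLANA (-3.85 ± 0.97, adjusted p = 0.013) and TRPM1 (-2.13 ± 0.39, adjusted p = 0.0011). GPR143 was at -3.31 ± 1.08 (adjusted p = 0.057), and it passed on 18 arrays, where 8 members were called and 6.91% of probe sets were lower. The count of 7 was 3 without E7fe replicate 2 and 4 without either E7fm array. In E9 feather skin 8 members, all but SLC45A2, were lower in mesenchyme on both sets of arrays, where 8.55% and 8.89% of probe sets were. MLANA differed most (-4.90 ± 0.79 on 20 arrays, adjusted p = 0.0003, and -6.62 ± 0.35 on 18), followed on 18 by TYR (-5.66 ± 0.20), DCT (-5.39 ± 0.37) and GPR143 (-5.38 ± 0.38). A fit on the E9fe and E9fm arrays alone kept 3 of the 8, since TYR, TYRP1, DCT, GPR143 and TRPM1 no longer passed. The median member stood at -3.41 in E7 and -3.55 in E9 feather skin on 20 arrays, and the median probe set at -0.03 and 0.00.

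In scale skin fewer members passed. At E9 only OCA2 passed as lower in mesenchyme on 20 arrays (-2.69 ± 0.67, adjusted p = 0.011), where 7.05% of probe sets did, and it did not pass without either E9se array, without E9sm replicate 1, or as the mean of its 3 probe sets (-1.29, adjusted p = 0.156). On 18 arrays 6 members passed, OCA2, MLANA (-2.37 ± 0.35), TYR (-2.27 ± 0.20), PMEL (-1.87 ± 0.38), TYRP1 (-1.75 ± 0.41) and DCT (-1.67 ± 0.37), where 8.25% of probe sets did. GPR143 was at +0.61 ± 0.38 (adjusted p = 0.38). At E11 no member passed on 20 arrays, although 18.8% of probe sets passed in either direction. Unadjusted p was below 0.05 for 3 members and for 10697 of the 38439 probe sets. On 18 arrays 6 members were lower in E11 scale mesenchyme, where 10.7% of probe sets were, from TYR (-1.75 ± 0.16, adjusted p = 1e-06) to OCA2 (-0.81 ± 0.23, adjusted p = 0.021), while TYRP1 (-0.75 ± 0.34, adjusted p = 0.15), TRPM1 and SLC45A2 did not pass.

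**Figure D3:**
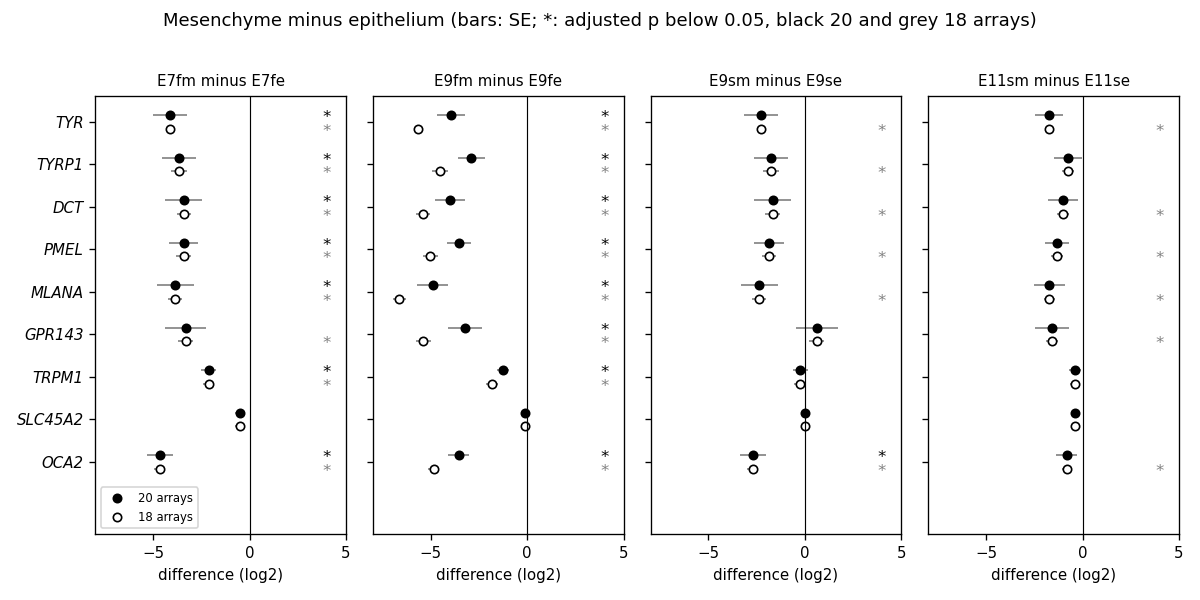
Mesenchyme minus epithelium (log2) in each of the 4 skins, from limma, with standard errors as bars, on all 20 arrays (filled) and without E9fe and E9fm replicate 1 (open). Stars mark an adjusted p below 0.05, black for 20 and grey for 18 arrays: 7, 8, 1 and 0 members on 20 arrays, and 8, 8, 6 and 6 on 18.

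Whether these gaps differ between skins was tested as a difference of differences. For skins after differentiation, (E11sm minus E11se) minus (E9fm minus E9fe), no member passed on 20 arrays (5 at an unadjusted p below 0.05), where 0.0702% of probe sets did in either direction. On 18 arrays 7 members passed, all with the smaller gap in scale skin, where 1.18% of probe sets passed as higher: MLANA (+4.90 ± 0.46, adjusted p = 2.7e-05), DCT (+4.38 ± 0.48, adjusted p = 0.00012), OCA2 (+4.03 ± 0.37, adjusted p = 2.5e-05), TYR (+3.91 ± 0.26, adjusted p = 1.4e-06), and GPR143, TYRP1 and PMEL (+3.82 to +3.68). TRPM1 was at +1.46 ± 0.39 (adjusted p = 0.081). Of 10 keratinocyte markers, 3 passed the same way on 18 arrays, among them DSP (+1.89, adjusted p = 0.00752) and CDH1 (+1.96, adjusted p = 0.00985), and their part was not tested. For skins before differentiation, 0 passed on 20 arrays, where 0.492% of probe sets did in either direction. Unadjusted p was below 0.05 for 2 members and for 2473 of the 38439 probe sets. On 18 arrays 4 passed, where 0.877% of probe sets passed as higher: GPR143 (+3.93 ± 0.53, adjusted p = 0.0011), OCA2 (+1.95 ± 0.40, adjusted p = 0.022), TRPM1 (+1.89 ± 0.43, adjusted p = 0.038) and TYR (+1.85 ± 0.28, adjusted p = 0.0023).

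The same was asked of stage, as the late minus the early difference between scale and feather skin. In epithelium no member passed on 20 arrays, where 0.127% of probe sets did in either direction. Unadjusted p was below 0.05 for 1 member and for 1862 of the 38439 probe sets. On 18 arrays OCA2 passed (-1.86 ± 0.39, adjusted p = 0.045), where 0.359% of probe sets passed as lower, and DCT was at -2.03 ± 0.50 (adjusted p = 0.11). In mesenchyme no member passed on 20 arrays, where 0.0442% of probe sets did in either direction. Unadjusted p was below 0.05 for 1 member and for 1177 of the 38439 probe sets. On 18 arrays MLANA (+3.10 ± 0.48, adjusted p = 0.0097) and TYR (+1.45 ± 0.27, adjusted p = 0.032) passed, where 0.161% of probe sets passed as higher, and PMEL was at +2.43 ± 0.51 (adjusted p = 0.071).

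The labelled compartments carried their markers. The mean of the keratinocyte markers, such as KRT5, lay between 10.42 and 11.54 in epithelium and between 5.63 and 8.27 in mesenchyme. Dermal fibroblast markers averaged 7.91 to 10.22 in epithelium and 11.84 to 12.34 in mesenchyme. Single markers of the other compartment differed widely. In E7fe COL1A2 measured 13.06 and 13.24 but TWIST2 3.51 and 3.57. In E7fm KRT14 measured 7.44 and 7.21 but KRT5 3.81 and 3.77. This scale has no true 0, and the share of 1 compartment's RNA in the other was not tested. Over the 20 arrays of both compartments, all 13 fibroblast and 9 of 10 keratinocyte markers rose above the array median at least once. Neuron markers also differed between the epithelial groups, with list means of 7.11 to 7.18 in E7fe, 6.29 to 6.35 in E9fe, 6.57 to 6.74 in E9se and 5.86 to 6.08 in E11se. Like the members on 18 arrays, they were lower in scale epithelium in both comparisons of like competence, but at E9 they were higher there. Their part in the members' differences was not tested. Of 9 markers of retinal pigment epithelium, the other pigmented tissue of the embryo, 6 never rose above the array median, and RPE65 lay between 3.81 and 4.45 on all arrays. RLBP1, another of the 9, moved with the members on 18 arrays, in E11se minus E9fe (-0.82, adjusted p = 0.0106), E9se minus E9fe (-0.88) and E9fm minus E9fe (-1.30), and in the late gap between compartments (+1.45, adjusted p = 0.00217). SERPINF1, also of that list, was higher in mesenchyme in all 4 skins (+4.59 to +5.58 on 20 arrays). The part of this tissue in the members' levels was not tested. Schwann cell and glial markers averaged 5.49 to 5.91 in epithelium and 5.98 to 6.61 in mesenchyme, opposite to the members. MBP, one of them, was instead lower in mesenchyme, in E7 feather skin (-3.77, adjusted p = 0.000911), E9 feather skin (-3.36) and E9 scale skin (-2.84), and its part was not tested.

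The other probe sets of TRPM1 and OCA2 can be set beside those used. Both further TRPM1 probe sets followed the first over the 20 arrays (r = 0.96 each) and gave -2.69 and -2.01 for E9se minus E7fe, where the one used gave -2.07. For OCA2, 1 further probe set followed closely (r = 0.99, -1.45 against -1.49), while the other was dimmer (3.98 to 6.44) and less alike (r = 0.71). That dimmer one gave +0.14 between E9 and E11 scale epithelium, where the other 2 gave -1.89 and -1.11, so the fall of OCA2 was seen by 2 of its 3 probe sets.

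Across all 20 arrays the members varied together. Among TYR, TYRP1, DCT, PMEL, MLANA, GPR143, TRPM1 and OCA2, the 28 pairwise correlations ran from 0.756 to 0.971 with a median of 0.878, whereas SLC45A2 correlated with them at 0.225 to 0.515. The arrays share groups and the split into compartments, so these values are a description. On all 20 arrays E7fe had the highest group mean for 7 genes and E9fe for DCT and GPR143, and without the doubted arrays E9fe was the highest for TYR and TYRP1 as well. The lowest group on 20 arrays was E9fm for TYR, TYRP1, DCT, PMEL and MLANA, and without the doubted arrays E9fm was the lowest for GPR143, TRPM1 and OCA2 too. On 20 arrays neighbouring groups in the order of means overlapped at 4 to 7 of the 7 steps.

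The genes most like the mean profile of the 9 members, among 13000 others, were GPNMB (r = 0.975 over the 20 arrays), CPB1 (0.962), SLC38A11 (0.962), APOH (0.945), ANKRD22 (0.944), EDNRB2 (0.944), LOC408038 (0.942), LOC421356 (0.938), RASGEF1C (0.929) and KITLG (0.928). GPNMB is a melanosomal glycoprotein related to PMEL, EDNRB2 is the endothelin receptor of avian melanoblasts, and KITLG is the ligand of the KIT receptor on them. Member by member, TYR and DCT were most like GPNMB (r = 0.977 and 0.973) and PMEL most like EDNRB2 (0.985). OCA2 was most like GATA3 (0.955), a transcription factor of epidermis, and GPR143 most like RCAN1 (0.906). APOH, a plasma protein made mainly by the liver, ran from 3.68 on an E9fm array to 9.78 on an E7fe array. It was an exception among 22 genes of other organs, 17 of which stayed below 6 on all arrays.

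**Figure D4:**
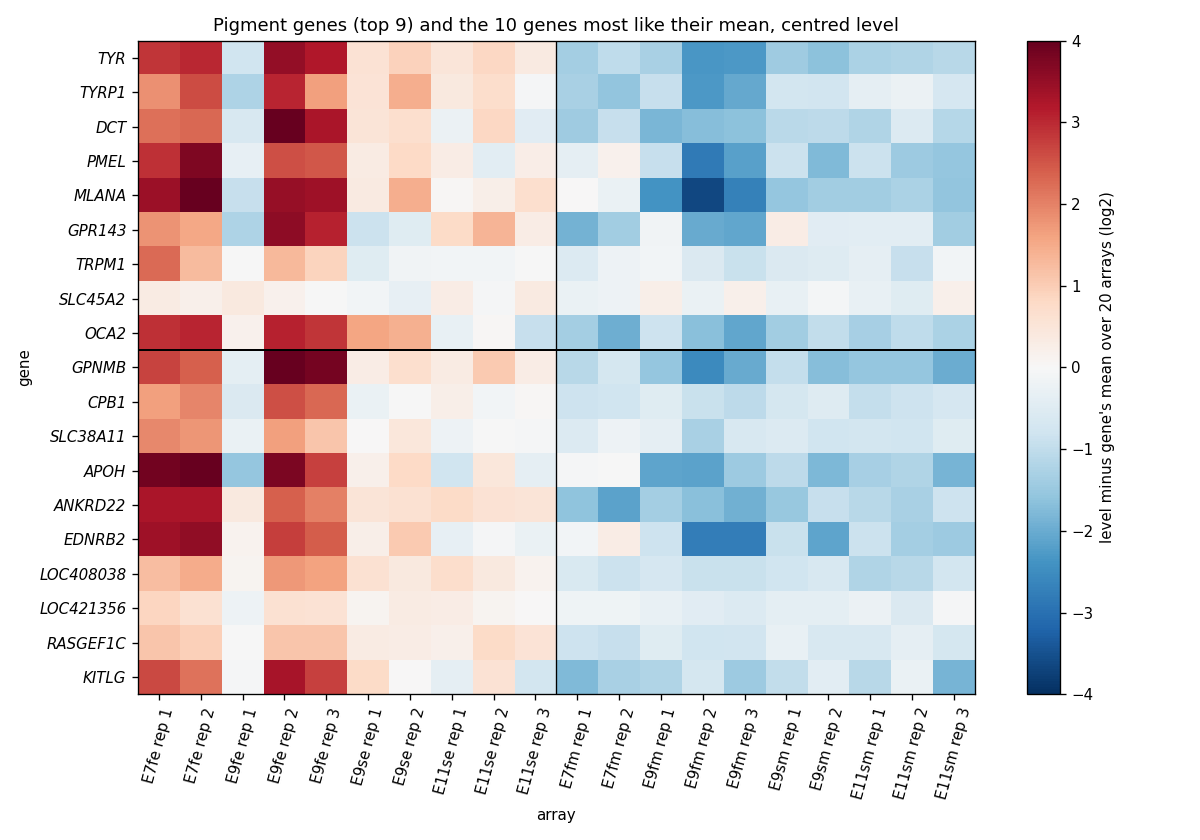
Level of the 9 pigment genes (above the line) and of the 10 genes most like their mean, on each of 20 arrays, minus each gene's mean over the arrays (log2, colour scale from -4 to 4). E9fe replicate 1 lacks the high values of the other E9fe arrays in nearly all rows, and SLC45A2 stays close to its mean on all arrays.

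GPNMB itself measured 8.95 and 8.64 in E7fe, 5.85, 10.72 and 10.05 in E9fe, 6.53 and 6.90 in E9se, 6.57, 7.28 and 6.52 in E11se, and 3.70 to 5.53 in mesenchyme. On 18 arrays it was lower in E11se than in E9fe (-3.60 ± 0.30, adjusted p = 8e-06), and, like GPR143, it rose from E7fe to E9fe (+1.59 ± 0.33, adjusted p = 0.018). Neither difference passed on 20 arrays. It stood in a list of 47 genes of melanosome assembly and transport, of which 37 were on the array. In that list the fall from feather to scale epithelium was limited to few genes: none passed on 20 arrays in E9se minus E7fe or E11se minus E9fe, and on 18 arrays 1 (GPNMB) and 2 (GPNMB and RAB38) did. Of all probe sets, 1.09% and 1.58% passed as lower in these comparisons on 18 arrays. RAB38, a small GTPase that carries TYR and TYRP1 to the melanosome, measured 6.32 and 5.45 in E7fe and 3.57, 7.25 and 5.52 in E9fe, against 3.70 to 4.50 in scale epithelium. SLC7A11, the cystine transporter linked to yellow-red pheomelanin, fell from E7fe to E9fe (-1.63 ± 0.31, adjusted p = 0.024 on 20 arrays). The list's median for E11se minus E9fe was -0.13 on 18 arrays, close to the 0.03 of all probe sets.

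Among 20 measured genes of a list of 22 melanoblast regulators, several fell with the pigment genes. In E9se minus E7fe, 4 passed as lower on 20 arrays, where 0.463% of all probe sets did, and 7 on 18, where 1.09% did. SOX10, a transcription factor of neural crest cells, was among them (-2.76 ± 0.45, adjusted p = 0.0072 on 20 arrays), as was PAX7 (-1.84 ± 0.27, adjusted p = 0.0038). In E11se minus E9fe, 1 passed on 20 arrays (ZEB2, -2.11, adjusted p = 0.03), where 0.312% of probe sets did in either direction. Unlike most pigment genes, ZEB2 was highest in E9fe on replicate 1, at 7.93 against 7.01 and 5.90. Its mesenchymal levels were 11.19 to 12.43. On 18 arrays 8 passed as lower, where 1.58% of probe sets did, among them KITLG (-3.19 ± 0.45, adjusted p = 0.00096) and EDNRB2 (-2.80 ± 0.32, adjusted p = 0.00014). EDNRB2 measured 10.94 and 11.10 in E7fe, 7.69, 10.32 and 9.99 in E9fe and 7.24 to 8.61 in scale epithelium. In mesenchyme it also followed MLANA, at 7.44 and 7.87 in E7fm, 6.75, 4.79 and 4.79 in E9fm, 6.67 and 5.47 in E9sm, and 6.71, 6.21 and 6.10 in E11sm. SOX10 did not, since its mesenchymal levels, 7.58 to 8.65, exceeded those of scale epithelium, 5.68 to 6.61. Between the compartments the list ran both ways. In E7fm minus E7fe on 20 arrays TFAP2A (-4.82) and KITLG (-3.94) were lower, but ZEB2 (+3.77) and TWIST1 (+7.82) were higher. EDNRB, another endothelin receptor, rose from E9se to E11se (+3.87 ± 0.64, adjusted p = 0.0098), against the direction of OCA2.

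MITF, the transcription factor that drives many pigment genes, and KIT were picked for display after their values were seen. MITF measured 9.71 and 9.19 in E7fe, 7.98, 9.54 and 9.18 in E9fe, 8.51 and 8.15 in E9se, 8.07, 8.56 and 7.73 in E11se, and 6.39 to 7.73 in mesenchyme. Its difference was -1.12 ± 0.41 for E9se minus E7fe (adjusted p = 0.43) and on 18 arrays -1.24 ± 0.28 for E11se minus E9fe (adjusted p = 0.029), where TYR gave -2.19 and -2.80. These values come from the brightest MITF probe set, and the others disagreed. Those spanning 6.15 to 9.09 and 5.42 to 8.00 were also highest in feather epithelium, apart from E9fe replicate 1. Those spanning 6.11 to 6.99 and 3.27 to 3.91 varied little. KIT measured 8.81 and 7.95 in E7fe and 6.33, 8.27 and 7.62 in E9fe, against 4.41 to 6.28 in scale epithelium.

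**Figure D5:**
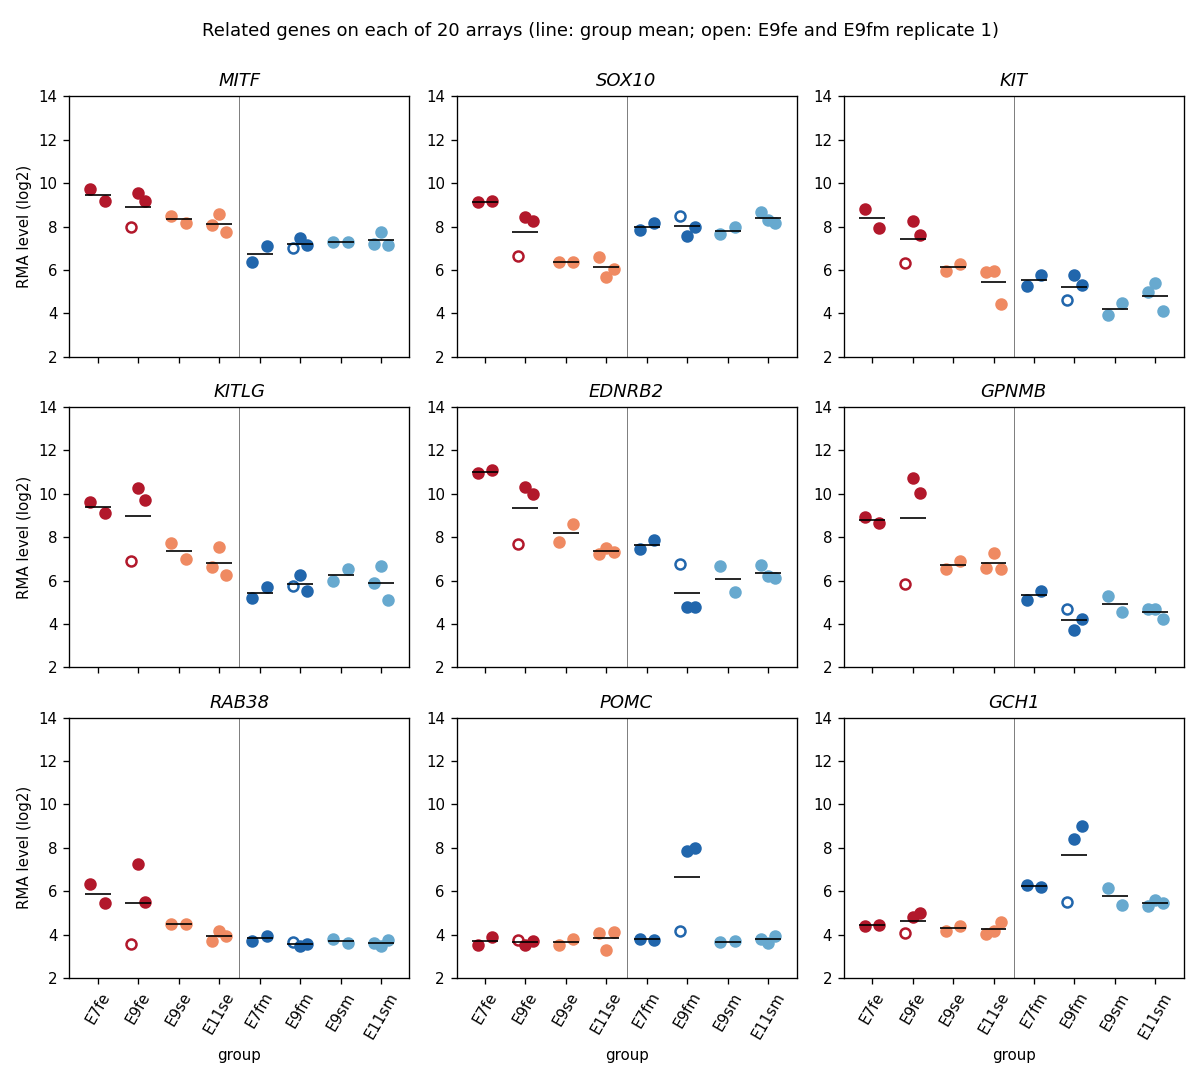
Level (RMA, log2) of 9 genes from the related lists on every array, by group, with colours, lines and open circles as for the pigment genes. EDNRB2, KITLG, GPNMB and RAB38 are high in E7fe and on E9fe replicates 2 and 3, SOX10 is high in mesenchyme as well, and POMC and GCH1 stand out on E9fm replicates 2 and 3.

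A further list held 27 genes that set pigment type and supply the pathway, 19 of them on the array. POMC, the precursor of melanocortins, measured 7.83 and 7.99 on E9fm replicates 2 and 3 and 3.30 to 4.15 on the other 18 arrays, E9fm replicate 1 included. GCH1, the first enzyme of tetrahydrobiopterin synthesis, measured 8.42 and 9.00 on those 2 arrays and 4.02 to 6.27 elsewhere. On 18 arrays both were higher in E9fm than in E11sm (E11sm minus E9fm: POMC -4.14 ± 0.22, adjusted p = 7.1e-08, GCH1 -3.25 ± 0.23, adjusted p = 1.6e-06), where MLANA, TYR and TYRP1 were lower in E9fm. Neither passed on 20 arrays (adjusted p = 0.18 and 0.34). MC5R, a melanocortin receptor, was higher in E9se than in E7fe (+1.28 ± 0.27, adjusted p = 0.034) and in E11se than in E9fe (+1.12 ± 0.22, adjusted p = 0.043), opposite to the pigment genes. In both comparisons the scale skin is the older. At the same age MC5R overlapped, at 5.35 and 5.56 in E9se and 5.55, 5.72 and 5.03 in E9fe. It measured 4.38 and 3.98 in E7fe and 6.28 to 7.06 in E11se. PRKCB, a protein kinase C that activates tyrosinase, fell from E7fe to E9fe (-1.27 ± 0.22, adjusted p = 0.011), while TYR was at -0.97 ± 0.82 on 20 and +0.41 ± 0.20 on 18 arrays.

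SLC24A5, a melanosomal ion exchanger, was measured by 2 probe sets that disagreed. The brighter one, used by rule, stayed between 7.56 and 8.35 on all arrays. The other measured 8.61 and 8.93 in E7fe, 5.61, 8.23 and 7.49 in E9fe, 6.53 and 6.94 in E9se, and 5.60, 6.36 and 5.93 in E11se. In mesenchyme it measured 6.67 and 6.47 in E7fm, 5.21, 6.11 and 5.46 in E9fm, 5.58 and 5.64 in E9sm, and 5.83, 6.08 and 5.60 in E11sm. Apart from E9fe replicate 1, feather epithelium was its highest, as for the pigment genes, but E11se lay within its mesenchymal range. This probe set was looked at after its values were seen.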

How the data were processed

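The authors' deposited values are log2 levels that, per the labels and methods, come from chicken genome arrays through RMA of the affy package (background correction, quantile normalisation and a summary of the probes of each set). Intensities before RMA were not used, so another background correction could not be tried. Of 38535 rows, 96 array controls were left out. The number of arrays limits the precision. The 20 arrays were grouped by their labels. The methods state other numbers of arrays per group. Arrays in 1 group are titled as biological replicates with no embryos named, so p-values measure the spread between these samples, which may be technical. Levels were compared with limma 3.58.1 in R 4.3.3 (1 mean per group, eBayes, two-sided, 14 pairwise comparisons and 4 differences of differences), and summarised in Python 3.11.15 with pandas 2.3.3 and numpy 2.4.6. The fit was tested on simulated data.

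The members and lists were chosen with earlier results of these data known, as were the 2 doubted arrays. All 9 members are named. From other lists, up to 2 genes each way that passed in a comparison are named, and exceptions are stated. Symbols come from the array annotation, in which 27168 probe sets have 1 symbol, 177 several and 11094 none. Alternatives were fits on the compared groups only, array weights, repeated quantile normalisation, leaving out dim probe sets, a trended robust prior, the mean of a gene's probe sets, leaving out arrays, and the replicate number as a block. Same-numbered arrays deviated together in the 4 comparisons with 3 pairs, with correlations of deviations from 0.209 to 0.707. No source says what the numbers share. Sequences of the genes were not used here.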

Additional observations from a re-analysis of the deposited data

Results flagged for a closer look

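For 4 results the arrays of the groups did not overlap and ran opposite ways in the contrasts compared. The share of all probe sets that did so was not counted, and the early contrasts set only 2 arrays against 2. In mesenchyme, TYR and MLANA were lower in scale than in feather skin before differentiation and higher after it, so that the late minus early difference was 1.12 for TYR and 2.83 for MLANA on all 20 arrays. For TYR the nearest arrays were hardly apart, at 4.80 in E9sm against 4.85 in E7fm, and 4.94 in E11sm against 4.90 in E9fm. These TYR levels all lay below the array medians. Before differentiation, TYRP1 and GPR143 were lower in scale than in feather epithelium and higher in scale than in feather mesenchyme, with a difference of differences of 1.91 for TYRP1 and 3.93 for GPR143. None of these passed in limma on 20 arrays (adjusted p of 1.0, 1.0, 0.999 and 0.543 in that order). On 18 arrays TYR, MLANA and GPR143 passed, and TYRP1 did not (1.91 ± 0.58, adjusted p = 0.17). Of the single early differences, those of GPR143 passed in limma on 18 arrays. In E9sm minus E7fm TYR (-0.34, adjusted p = 0.83), MLANA (-1.33, adjusted p = 0.083) and TYRP1 (+0.69, adjusted p = 0.85) did not pass. TYRP1 did not pass in E9se minus E7fe either (-1.22, adjusted p = 0.25). No group has the 4 arrays that a check for single outlying arrays needs.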

How the results depend on the processing

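Leaving out E9fe and E9fm replicate 1 changed most. The members passing then numbered 7 for E9se minus E7fe (from 1), 1 for E9sm minus E7fm (from 0), 8 for E11se minus E9fe (from 0), 3 for E11sm minus E9fm (from 0), 7 for E9se minus E9fe (from 0), 3 for E9sm minus E9fm (from 0), 1 for E9fe minus E7fe (from 0), 3 for E9fm minus E7fm (from 0), 2 for E11se minus E9se (from 0), 6 for E9sm minus E9se (from 1) and 6 for E11sm minus E11se (from 0). For the differences of differences they numbered 1 and 2 for late minus early in epithelium and mesenchyme, and 4 and 7 for the early and late gaps between compartments (all from 0). With only the groups compared, the counts were 7 for E9se minus E7fe, 1 for E11se minus E9se, 3 for E9fm minus E9fe (from 8), 6 for E9sm minus E9se, 4 for E11sm minus E11se and 4 for the early gap. With array weights they were 2 for E9se minus E7fe, 2 for E11se minus E9fe, 3 for E9se minus E9fe, 1 for E9fm minus E7fm, 1 for E11se minus E9se, 4 for E9sm minus E9se, 2 for E11sm minus E11se, and 1 each for the early and late gaps. Leaving out dim probe sets removed TRPM1 and SLC45A2, so 0 passed for E9se minus E7fe, and the mean of a gene's probe sets gave 0 for E9sm minus E9se.

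Leaving out 1 array at a time, the counts ranged from 0 to 6 for E9se minus E7fe, 0 to 7 for E11se minus E9fe, 0 to 7 for E9se minus E9fe, 0 to 1 for E9fm minus E7fm, 0 to 1 for E11se minus E9se, 3 to 8 for E7fm minus E7fe, 6 to 8 for E9fm minus E9fe, 0 to 6 for E9sm minus E9se, 0 to 5 for E11sm minus E11se, 0 to 2 for the early gap and 0 to 7 for the late gap, and were 0 throughout for the 7 other comparisons. Leaving out E9fe replicate 1 gave the highest count in each of these ranges, and a lone array left in a group is assumed to vary like the others. The direction reversed for TYRP1 in E11se minus E9fe, which ran from -2.0 without E9fe replicate 1 to 0.15 without E9fe replicate 2, and for GPR143 in E9fe minus E7fe, which ran from 1.65 without E9fe replicate 1 to -0.76 and -0.51 without replicates 2 and 3. With the replicate number as a block, where the pairing held in 4 comparisons, all counts stayed as without it, for example 8 for E9fm minus E9fe, and none of 77 named differences changed its call. That block gives same-numbered arrays a common shift across all groups, so pairs within a single comparison were not modelled. In the comparisons with 2 pairs the arrays share only a number. Crossing the E7fm numbers, chosen after seeing the data because the correlation was -0.333, also changed none. Repeated quantile normalisation and a trended robust prior changed none of the 77 calls. Values near or below the array medians may lie near background, which these levels cannot separate. They include SLC45A2, TRPM1 outside feather epithelium, TYR, DCT and OCA2 in mesenchyme, and GPR143 in E7fm. The calls of TYR between mesenchymal groups rest on levels of 3.87 to 5.21. The gaps of these genes between compartments rest on such levels on the mesenchymal side.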
